A study of Mus musculus with 6 samples.

Results

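CIDE proteins and the enzymes of lipid droplet lipolysis were followed here in livers of fasted mice with and without Creb3l3, the gene of the transcription factor CREBH. The set was taken by gene symbol and held 9 genes, Cidea, Cideb, Cidec, G0s2, Pnpla2, Pnpla3, Abhd5, Mgll and Lipe, which had 13 of the 45281 probes of an Illumina WG-6 bead array. Each of 6 male C57BL/6 mice gave 1 liver array, after a 24 h fast that followed normal chow. Of these, 3 mice were wild type and 3 were littermates labelled Creb3l3 KO. Their age and the design of the deleted allele are not given in the sources used here.

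Hepatocytes store triglyceride in lipid droplets, which grow by transfer of lipid between droplets and shrink when lipases release fatty acids. CIDE proteins sit where droplets touch and help lipid pass from a smaller droplet to a larger one. Cidea is known from brown fat, Cideb from hepatocytes, where it takes part in loading very-low-density lipoprotein with lipid, and Cidec (Fsp27) from white fat and from fatty or fasted liver. Lipolysis starts with Pnpla2 (adipose triglyceride lipase), which Abhd5 activates and G0s2 inhibits. Lipe (hormone-sensitive lipase) cleaves diacylglycerol and Mgll (monoacylglycerol lipase) the monoacylglycerol that is left, while Pnpla3 (adiponutrin) is a relative of Pnpla2 on the droplet surface.

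The arrays were unequally bright, and that of knockout replicate 3 stood apart. Detection p-values under 0.05 were reached by 15504 to 16224 probes on the wild-type arrays, and by 11846, 15867 and 4302 probes on those of knockout replicates 1, 2 and 3. Mean signals were 219 to 252 arbitrary units in wild type and 149, 246 and 87.3 in the knockouts. Across probes, normalized signals of knockout replicate 3 correlated with the other arrays at r = 0.676 to 0.697, and the other 5 arrays with each other at 0.973 to 0.993. The comparison below therefore uses 3 wild-type and 2 knockout arrays, a choice made with this known, and gives the values of all 6 arrays beside it for the 9 genes and as medians for lists of other genes. Creb3l3 itself fell by 2.32 ± 0.15 (SE) on the log2 scale (limma adjusted p = 0.00271), although which part of the gene its probe covers relative to the deletion is unknown. Hepatocyte transcripts such as Ttr and Serpina1c were among the markers detected on each of the 5 arrays used (6 of 7 hepatocyte genes). Signals below are listed in the order of replicate number within a genotype.

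In the fasted liver without Creb3l3, the transcript of Cidec fell below detection on both knockout arrays used, from a clear signal in every wild-type mouse. G0s2 and Mgll were lower in both knockout livers than in any wild-type liver without passing the test. Pnpla2, Abhd5 and Cideb did not pass either, with changes of -0.10, -0.20 and -0.36 on the log2 scale. Cidea, Pnpla3 and Lipe had no probe above background on enough arrays to be tested. Of the 6 genes tested, 1 was called lower (Cidec), 0 were called higher and 5 did not pass, where 0.342% of all 14345 tested probes were called in either direction 0.279% were called lower and 0.0627% higher. At an unadjusted p under 0.05 stood 3 of the 6 genes, all lower (Cidec, G0s2 and Mgll), where 12.1% of all tested probes did in either direction and 7.47% were lower. The call of Cidec is of a probe that met the filter on dim probes through its wild-type arrays alone, so the count is not read against these shares. Across all 6 arrays limma called 0 of the 6 genes, as it called 0% of the 14494 probes tested, of which 558 (3.85%) had an unadjusted p under 0.05. Of the 6 genes, each at its brightest probe, Cidec and G0s2 had an unadjusted p under 0.05 in that fit. The brightest Mgll probe had an unadjusted limma p of 0.0627, while a dimmer Mgll probe had 0.03.

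**Figure D1:**
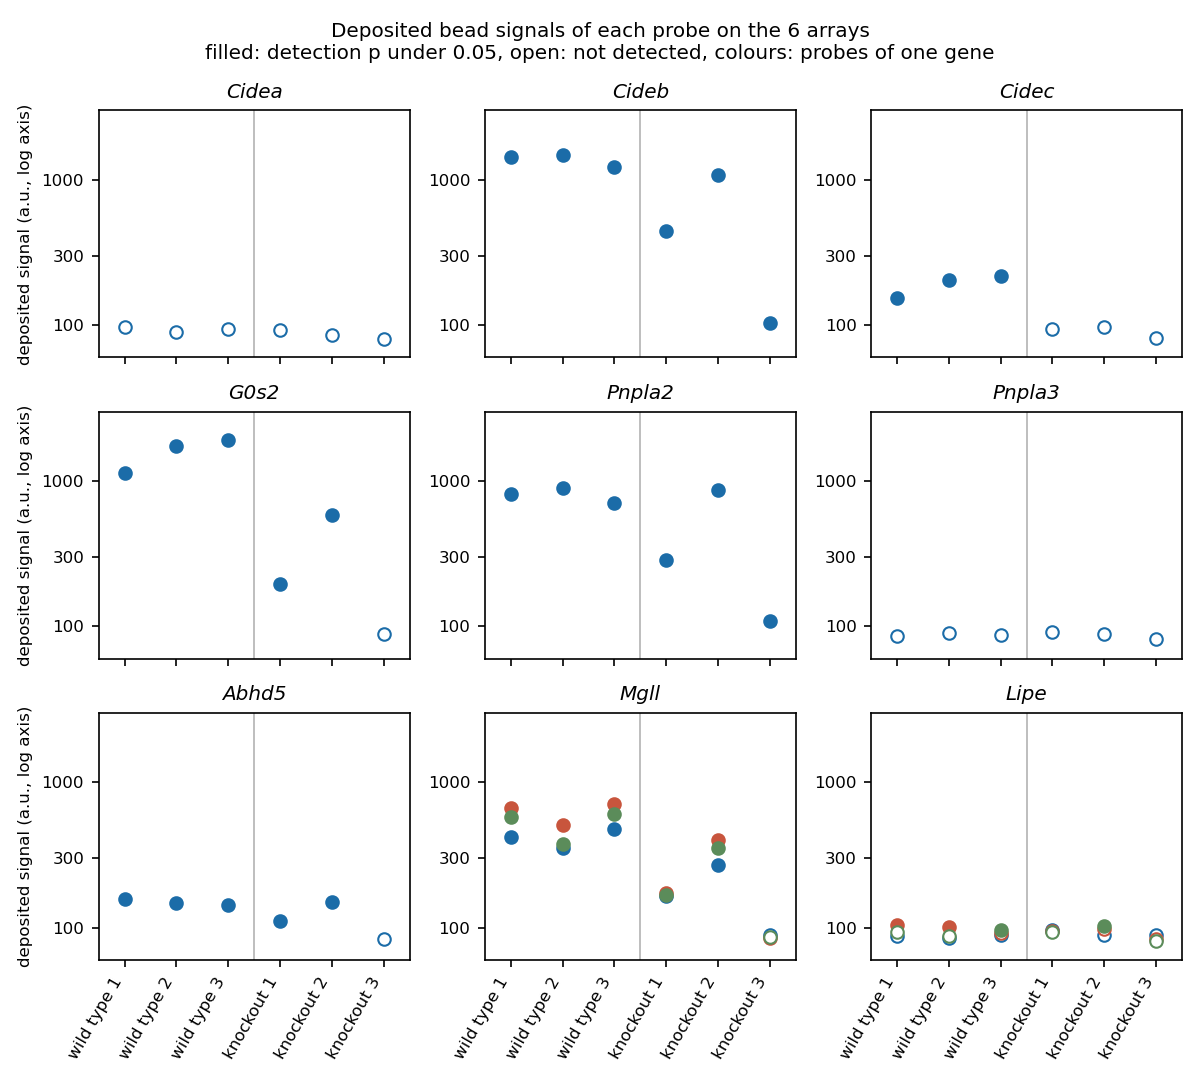
Deposited bead signal (arbitrary units, log axis) of every probe of the 9 genes on each of the 6 arrays, with filled points for a detection p under 0.05. Cidec is detected on the 3 wild-type arrays and on 0 of the 3 knockout arrays, and Pnpla2 on knockout replicate 2 (869) lies within the wild-type range of 705 to 902. The array of knockout replicate 3 was too dim to show Cidec at its wild-type level.

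Cidec, which enlarges droplets, gave 154, 205 and 218 units of deposited signal across the wild-type mice, each detected. The knockout mice gave 94.3, 96.5 and 81.2 units, with detection p-values of 0.371, 0.0887 and 0.682. All knockout signals thus lay below all wild-type signals, and none was above background, but the arrays of knockout replicates 1 and 3 were dimmer throughout. The array of replicate 3 could not show a loss of Cidec. With all 6 arrays normalized its dimmest detected probe stood at 7.01, where wild-type Cidec stood at 5.84 to 6.95. Normalized log2 signals averaged 6.74 ± 0.63 (SD, n = 3) with Creb3l3 and 4.41 ± 0.09 (SD, n = 2) without it, a log2 change of -2.32 ± 0.33 (SE; 95% interval -3.08 to -1.57; limma adjusted p = 0.0377). Because Cidec was not detected in either knockout liver used, its fall is given as a bound, 3.95-fold between group means. This bound takes no account of the spread between mice. For that bound each knockout value was raised, where lower, to the dimmest detected probe of its array. With all 6 arrays the log2 change was -2.20 ± 0.34 (adjusted p = 0.653) and the bound 2.10-fold. Cidec passed the filter on dim probes only through its wild-type arrays. Its call rested on single mice, with an adjusted p of 0.0991 without knockout replicate 1, where the lone knockout array left is assumed to vary like wild type. The filter left it untested when a wild-type array was left out; with a filter on 2 arrays, chosen after seeing the data, the adjusted p was 0.00622 without wild-type replicate 1, 0.197 without replicate 2 and 0.138 without replicate 3. With no background correction the log2 change shrank to -0.97 (adjusted p = 0.0812).

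G0s2, the inhibitor of Pnpla2, read 1130.5, 1754 and 1919 across the wild-type mice. Across the knockouts it read 196, 587 and 88.3, the last of them not above background. The groups did not overlap, and wild-type replicate 1 was the lowest of its own group. On the normalized scale G0s2 averaged 10.36 ± 0.63 (SD, n = 3) with Creb3l3 and 8.48 ± 0.25 (SD, n = 2) without it, a log2 change of -1.89 ± 0.34 (SE; 95% interval -2.66 to -1.11). This did not pass after adjustment over all probes (unadjusted p = 0.000511, limma adjusted p = 0.0922), although it was the 26th largest fall of the 14345 probes. Without wild-type replicate 1, whose G0s2 signal was the lowest of its group, the change was -2.26 with an adjusted p of 0.0206. An offset of 50 (adjusted p = 0.0408) and cyclic loess (0.0272) also brought it past the threshold. It stayed above the threshold without wild-type replicate 2 (0.309), wild-type replicate 3 (0.307) or knockout replicate 1 (0.194), and with array weights (0.323). With all 6 arrays the change was -2.56 ± 0.66 (adjusted p = 0.653).

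Mgll, which completes the breakdown of triglyceride, was read by 3 probes that moved alike. Its brightest probe read 670.5, 509 and 714 across the wild-type mice against 174, 399.6 and 85.7 across the knockouts. Both knockout livers used lay below every wild-type liver at all 3 Mgll probes, on the deposited and on the normalized scale. The log2 change was -0.95 ± 0.20 (SE; 95% interval -1.41 to -0.49; limma adjusted p = 0.15) at the brightest probe. It was -0.78 ± 0.24 (adjusted p = 0.313) and -0.70 ± 0.25 (adjusted p = 0.36) at the others. The brightest probe passed with a trended, robust variance (adjusted p = 0.0394), under which 0.85% of all probes were called. With all 6 arrays the 3 changes ran from -1.98 to -0.86, each with an adjusted p of 0.653.

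Sequence before the start site is shown for Cidec, G0s2 and Mgll, the genes whose knockout values lay farthest below wild type. Each window is the 250 bases before a RefSeq start (GRCm38.p6), on the gene's strand, 5′ to 3′, with capitals for matches on either strand to the motifs searched. Cidec is at chr6:113435761-113436010 (minus strand), G0s2 at chr1:193273189-193273438 (minus strand) and Mgll at chr6:88724162-88724411 (plus strand). The Cidec window lies over the predicted gene Gm52871 and that of Mgll over Gm26588. RefSeq lists 1 more start each for Cidec and Mgll, whose windows overlap the genes themselves, held no match and are not shown.
Cidec: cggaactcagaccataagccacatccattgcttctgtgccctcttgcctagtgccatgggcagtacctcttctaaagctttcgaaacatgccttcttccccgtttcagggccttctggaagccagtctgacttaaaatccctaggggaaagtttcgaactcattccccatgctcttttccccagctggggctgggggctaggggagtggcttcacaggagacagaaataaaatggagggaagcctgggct
G0s2: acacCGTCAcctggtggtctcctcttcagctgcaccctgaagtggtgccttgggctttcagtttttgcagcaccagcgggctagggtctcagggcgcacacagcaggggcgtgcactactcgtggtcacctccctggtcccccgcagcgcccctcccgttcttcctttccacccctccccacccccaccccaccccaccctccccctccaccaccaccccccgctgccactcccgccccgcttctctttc
Mgll: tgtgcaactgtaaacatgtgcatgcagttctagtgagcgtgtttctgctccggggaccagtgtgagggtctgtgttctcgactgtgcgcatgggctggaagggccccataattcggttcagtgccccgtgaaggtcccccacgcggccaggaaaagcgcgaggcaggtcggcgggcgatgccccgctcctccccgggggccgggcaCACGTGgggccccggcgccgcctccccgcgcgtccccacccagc
The motifs were the cyclic AMP response element TGACGTCA, its part TGACG, the DR-1 element of nuclear receptor dimers (AGGTCA repeated after 1 base), the CCAAT box, the box of TATA type searched as TATAAA, and the E-box CACGTG. The Cidec window held no match, that of G0s2 held TGACG on the strand opposite the gene (printed as CGTCA) at 246 bases before the start, and that of Mgll held CACGTG at 44 bases. Of 32851 windows of the same length over all genes, 17.8% held TGACG and 6.02% held CACGTG. The shares were 0.0335% for the DR-1 element, 33.8% for CCAAT and 12.4% for TATAAA. The full TGACGTCA was found in 1.55% of all windows and, among these genes, in that of Pnpla3, at 46 bases before the start. These matches are letters in a window and show no binding.

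Pnpla2, which takes the first fatty acid off triglyceride, read 814, 902 and 705 across the wild-type mice against 287, 869 and 109.5 across the knockouts. On the bright array of knockout replicate 2 it was inside the wild-type range, and it was lower on both dimmer arrays. After normalization the groups overlapped, at 9.35 ± 0.28 (SD, n = 3) and 9.25 ± 0.07 (SD, n = 2). The log2 change was -0.10 ± 0.20 (SE; 95% interval -0.56 to 0.35; limma adjusted p = 0.854). Its sign was not stable, at 0.37 with all 6 arrays and 0.053 without wild-type replicate 2.

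Abhd5, the activator of Pnpla2, read 158, 148 and 143 across the wild-type mice against 111, 150.4 and 83.4 across the knockouts, where replicate 3 was not detected. Deposited signals overlapped through knockout replicate 2, while normalized values of both knockout livers used (5.94 and 5.94) lay just below the wild-type range of 6.08 to 6.22. The log2 change was -0.20 ± 0.15 (95% interval -0.55 to 0.15; limma adjusted p = 0.608), and with all 6 arrays -0.67 ± 0.43 (adjusted p = 0.653).

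Cideb, the CIDE protein of hepatocytes, read 1435, 1487 and 1229 across the wild-type mice against 442, 1085 and 103 across the knockouts. It was detected on all 6 arrays. Its normalized values overlapped, with knockout replicate 1 level with wild-type replicate 1, at the lower end of a range that reached 10.40 in wild type, and knockout replicate 2 at 9.64. The log2 change was -0.36 ± 0.20 (95% interval -0.81 to 0.09; limma adjusted p = 0.493), and with all 6 arrays -0.21 ± 0.25 (adjusted p = 0.685). For Cideb the interval reaches a fall of 0.81, so a change of that size was not excluded by these arrays.

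**Figure D2:**
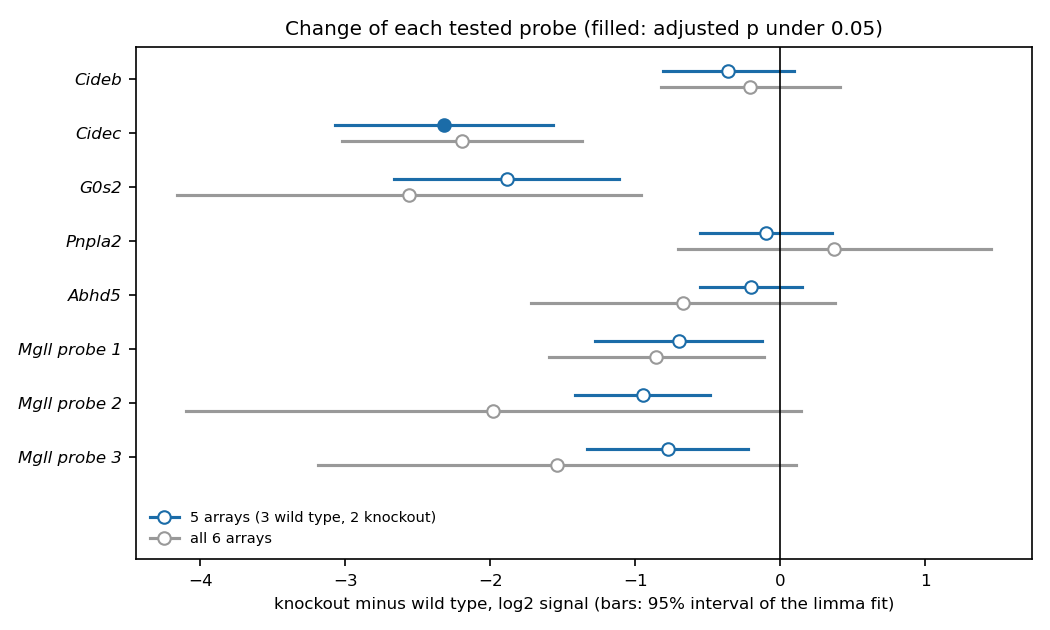
Log2 difference of normalized signal, knockout minus wild type, for the 8 tested probes, with 95% intervals of the limma fit for 5 arrays (blue) and all 6 arrays (grey) and filled points for an adjusted p under 0.05. Cidec at -2.32 is the only filled point, G0s2 at -1.89 lies next to it, and Pnpla2 moves from -0.10 to 0.37 when knockout replicate 3 is added.

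In normalized values both knockout livers lay below all 3 wild-type livers for 4 of the 6 tested genes (Cidec, G0s2, Mgll and Abhd5) and the groups overlapped for 2 (Cideb and Pnpla2). Among all tested probes 16.4% had both knockout values below wild type and 12.9% above. The median log2 change of the 6 genes was -0.65, where all tested probes had a median of -0.03. Since Cidec entered only through its wild-type arrays, these counts describe the genes and are no test. Knockout replicate 2, whose array was as bright as those of wild type, allows a look at deposited signals without normalization. There G0s2 stood at 36.7% of the wild-type mean, Cidec at 50.1%, Mgll at 63.3%, Cideb at 78.4%, Abhd5 at 100.4% and Pnpla2 at 107.6%. These signals include the array background, so the percentages of the dimmer probes understate a change.

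Cidea and Pnpla3 were not detected in fasted liver of either genotype, and Lipe was near background. The single Cidea probe ranged from 80.0 to 97.6 and the single Pnpla3 probe from 82.0 to 92.1, and neither was detected on any of the 6 arrays. Lipe had 3 probes with signals of 81.5 to 104.9, detected in 4 of 18 readings. Of its probes 1 was detected on wild-type replicates 1 and 2, another on wild-type replicate 3 and knockout replicate 2, and the last on no array. 1 more probe under an older name of Lipe (4933403G17Rik), which the selection by symbol did not take, was not detected either. No fold change is given for these genes, as no probe of theirs was detected on 3 arrays. Markers of adipocytes, cells that express Cidec, G0s2, Lipe and Pnpla2 strongly, were largely undetected too. Of 8 adipocyte genes, Car3, which liver expresses as well, was detected in every wild-type liver, and 5 were detected on no array of the 5 used. The defining marker Adipoq was detected on 0 of 3 wild-type arrays, at 88.7 to 97.9. On knockout replicate 1 Adipoq was detected, at 106, as was Lep, at 102, which was detected on no wild-type array. Neither was detected on knockout replicate 2. Summed normalized signals of the 8 adipocyte genes were 759 to 882 across the wild-type mice against 1549 and 668 in the knockouts used, a sum that is mostly Car3. Hepatocyte markers summed to 75704 to 80137 across the wild-type mice and were lower in both knockouts used, at 70470 and 67102. Of the tested genes in this sum, only Cyp2e1 was below every wild-type value in both (-0.47 ± 0.15, limma adjusted p = 0.333). Hnf4a was above (0.17 ± 0.16, 0.672), and Alb, Ttr, Serpina1c and Apoh overlapped. Of the other cell types, summed markers of endothelium were 439 to 480 in wild type against 569.7 and 676 in the same knockouts, and those of macrophages 917 to 1125 against 1007 and 1230.3. Stellate cell markers summed to 3862 to 4242 against 3991 and 4651, those of cholangiocytes to 425 to 643 against 620.2 and 687, and those of skeletal muscle, detected on every wild-type array for 0 of 4 genes, to 76.9 to 81.3 against 88.2 and 76.7. Among the macrophage markers, Cd68 (0.47 ± 0.22, limma adjusted p = 0.445), Adgre1 (0.69 ± 0.17, 0.219) and Marco (0.95 ± 0.26, 0.252) were above every wild-type value in both knockouts used. So were 12.9% of all tested probes. Clec4f (0.04), Csf1r (0.001) and Lyz2 (-0.05) overlapped, and with all 6 arrays every macrophage marker did. Of the endothelial markers, Pecam1 (0.27), Cdh5 (0.18) and Lyve1 (0.64) were also above every wild-type value in both knockouts used. Stab2 (0.22) overlapped, and Kdr was not tested. With all 6 arrays only Lyve1 of these stayed above. Of the tested stellate cell markers, Reln (-0.48) was below every wild-type value, Des (0.28) was above, and Dcn (0.13) overlapped. No marker of any list was called in limma, and the part of these cells in the results was not tested. In whole liver, fewer cells of a type and less RNA per cell cannot be told apart.

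Within wild type, Cidec and G0s2 varied together. Wild-type replicate 1 had the lowest signal for both genes although its array was the brightest of its group by mean signal. Likeness of profile was measured over the 5 arrays as the root mean square difference of log2 signals, each centred on its mean, among the brightest probes of 10055 tested genes. G0s2 was the gene nearest to Cidec, at 0.224, followed by 1810055G02Rik (0.336), the laminin chain Lamb3 (0.357), the hormone Fgf21 (0.359) and 2010003K11Rik (0.399). Nearest to G0s2 were Lamb3 (0.180), Cidec (0.224), the muscle LIM protein Csrp3 (0.327), Gpcpd1 (0.342) and the elongase Elovl5 (0.351). In normalized values all of these profiles, and not only Cidec and G0s2, were lowest in replicate 1 within wild type. All were lower in both knockout livers, and they share the same 5 arrays, so the ranking describes these livers only. Because the nearest genes were picked for likeness over these arrays, the traits they share follow from that choice and are no separate result. Cidec and Lamb3 were not detected on either knockout array used, and Fgf21 and 2010003K11Rik on 1 of them, so the drop that sets these distances is only a bound for these genes. Pnpla3 has no such ranking, being detected on no array.

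**Figure D3:**
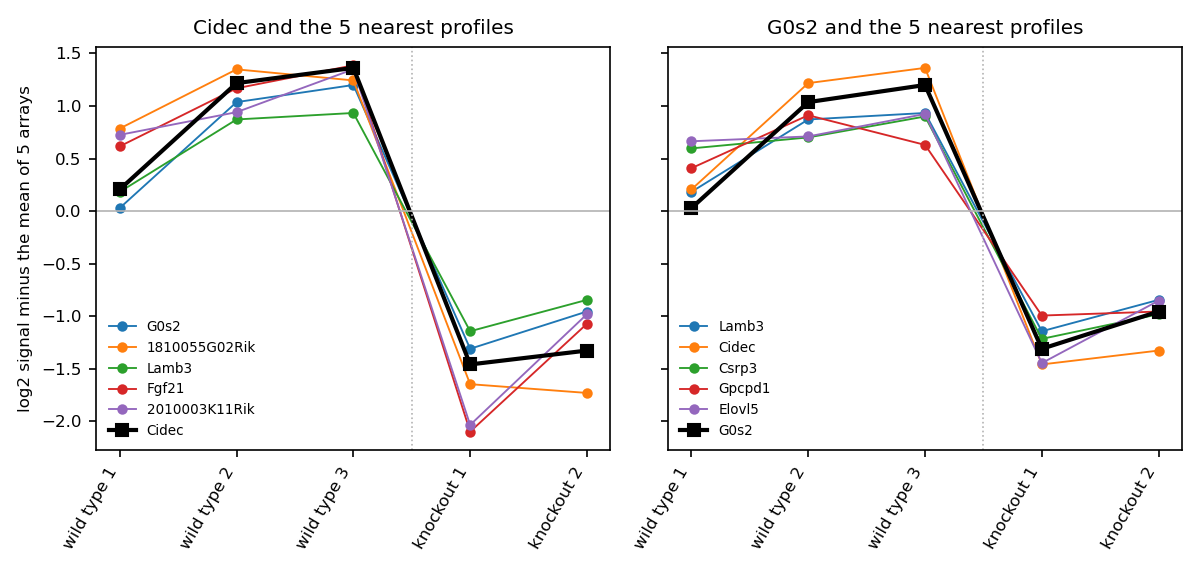
Normalized log2 signal of Cidec (left) and G0s2 (right), in black, and of the 5 genes with the nearest profile each, over 3 wild-type and 2 knockout arrays, each centred on its own mean. Each line drops between wild type and knockout, and in both panels wild-type replicate 1 lies below replicates 2 and 3 for every gene drawn. The nearest genes were chosen for this likeness.

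Other proteins of droplet coats and droplet formation did not pass the test as single genes. Of 14 tested, limma called 0 in either direction. An unadjusted p under 0.05 was reached by 1 above and 3 below wild type, and the median log2 change was 0.00. Plin3, a coat protein of new droplets, stood at 0.84 ± 0.20 (SE; adjusted p = 0.203). Fitm2, which helps droplets bud from the endoplasmic reticulum, stood at -0.79 ± 0.21 (adjusted p = 0.25), Cav1 at -0.42 ± 0.16 (adjusted p = 0.388) and Hsd17b11 at -0.37 ± 0.16 (adjusted p = 0.411). These are the brightest probes. Other tested probes of Fitm2 stood at -1.28 ± 0.31 (adjusted p = 0.213) and -0.52 ± 0.23 (0.416). Those of Hsd17b11 stood at -0.54 ± 0.15 (0.258) and -0.68 ± 0.18 (0.241). Cav1 and the Fitm2 probe at -0.52 were not detected on knockout replicate 1. Of 11 other neutral lipid hydrolases tested, limma called 0. An unadjusted p under 0.05 was reached by 1 above and 2 below wild type, and the median was -0.03. Pnpla7, a lysophospholipase related to Pnpla2, stood at -0.89 ± 0.20 (adjusted p = 0.167), reading 1125, 939 and 874 across the wild-type mice against 263 and 534 in the knockouts used. The lysosomal acid lipase Lipa stood at -0.60 ± 0.20 (adjusted p = 0.333), the cholesteryl ester hydrolase Nceh1 at -0.60 ± 0.27 (adjusted p = 0.419) and the carboxylesterase Ces1f at 0.48 ± 0.20 (adjusted p = 0.397). Another tested probe of Lipa stood at -0.46.

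Of 8 tested acyltransferases and lipins that supply droplets with lipid, limma called 0. An unadjusted p under 0.05 was reached by 0 above and 1 below wild type, and the median was -0.16. Dgat1, which makes triglyceride, stood at -0.63 ± 0.23 (adjusted p = 0.366), Agpat2 at -0.34 ± 0.15 (adjusted p = 0.424), Lpin2 at -0.40 ± 0.20 (adjusted p = 0.466) and Soat2 at 0.28 ± 0.19 (adjusted p = 0.562). Other tested probes stood at -0.15 for Agpat2, 0.09 and -1.07 for Lpin2, and -0.19 for a dim probe of Soat2. Dgat1 and the Lpin2 probe at -1.07 were not detected on knockout replicate 1. Dgat1 read 138, 124 and 129 across the wild-type mice against 99.6 and 128 in the knockouts used. Among 8 tested factors known to regulate CIDE or lipase genes, 0 were called higher and 1 lower, with a median of -0.19. That one was Ppara, the nuclear receptor of the fasting response, reading 144, 127 and 131 across the wild-type mice against 96.0, 103 and 77.5 across the knockouts, where 1 of 3 was detected. Ppara fell by 1.24 ± 0.17 (SE) on the log2 scale (limma adjusted p = 0.0345), with knockout replicate 1 not above background. The size of this fall moved with the background step, to -0.64 with an offset of 50, -0.42 with no background correction and -0.37 in the authors' value table. Its call was kept under 4 of 17 alternatives but not when wild-type replicate 1, 2 or 3 was left out (adjusted p = 0.191, 0.15 and 0.207). It was also lost without knockout replicate 1 (0.0505) and with all 6 arrays (0.653). Pparg, the receptor that drives Cidec in fat, stood at 0.23 ± 0.22 (adjusted p = 0.686). With all 6 arrays limma called 0 genes of these lists. The medians were then -0.26 for droplet coats, -0.63 for hydrolases, -0.34 for acyltransferases, where 8 of 8 were below 0 against 4 of 8 in 5 arrays, and -0.68 for regulators, with -0.28 over all tested probes. Plin3 stood at 1.59 ± 0.67 in that fit (adjusted p = 0.653).

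**Figure D4:**
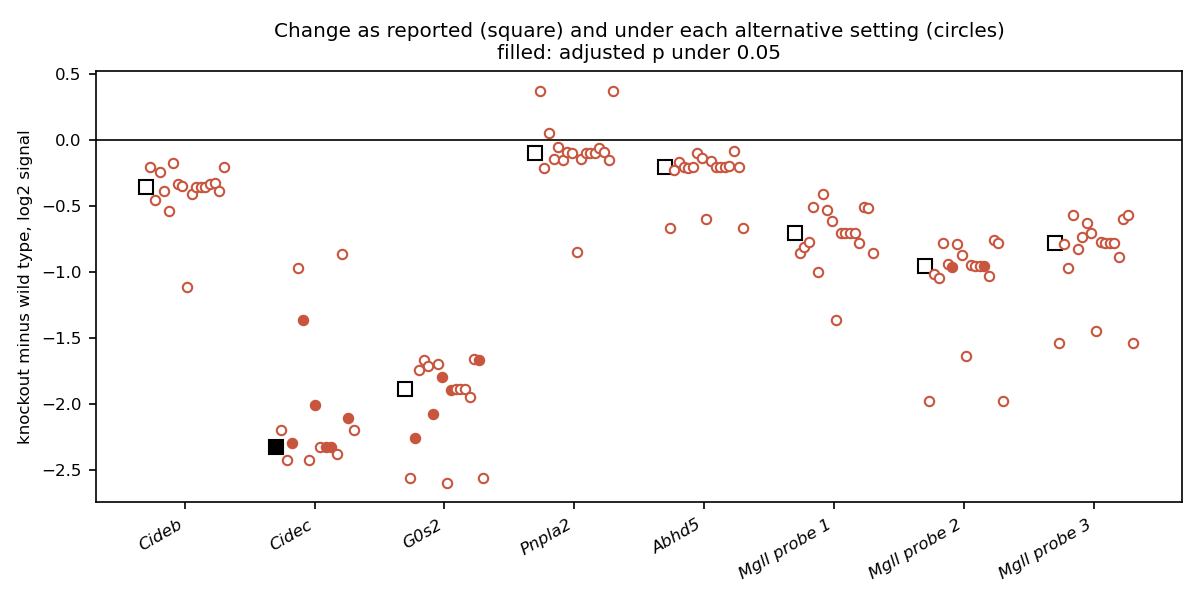
Log2 difference, knockout minus wild type, of the 8 tested probes as reported (black squares) and under each alternative setting (circles), filled where the adjusted p was under 0.05. Cidec runs from -2.43 to -0.87 and G0s2 from -2.60 to -1.66, both below 0 throughout, while Pnpla2 crosses 0.

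Over 17 alternative settings Cidec could be tested in 14 and was called in 6, and G0s2 was called in 5 of 17. The brightest Mgll probe was called in 2 of 17, and Cideb, Pnpla2 and Abhd5 in 0 of 17 each. Every alternative kept the direction of Cidec, G0s2, Mgll, Abhd5 and Cideb, and Pnpla2 turned in 3. These counts include the setting without knockout replicate 2, in which Cidec, G0s2 and Mgll were called, as were 16.7% of all tested probes, with 1 knockout array left.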

How the data were processed

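Each array table holds, per the file headers, an average bead signal per probe, a linear intensity that shows no normalization or background subtraction in its range and medians, and a detection p-value that the authors' software computed per array. BeadStudio 3 is named per the submitters' processing notes. The authors also deposited a value table of normalized intensity, used only as an alternative. Its values, linear and uncentred, lay within 0.0179 (log2) of a plain quantile normalization of the array tables, its column medians were 91.7 for 5 arrays and 91.6 for knockout replicate 3, and its columns of wild-type replicates 2 and 3 are exchanged relative to the array tables.

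Normalization used neqc of limma 3.58.1 in R 4.3.3 (normexp, negative controls inferred from detection p-values, offset 16, quantile normalization, log2). Testing was limited to probes detected (p under 0.05) on 3 or more arrays, 14345 for 5 arrays and 14494 for 6. The model (lmFit, eBayes) held genotype alone, two-sided, with Benjamini-Hochberg adjustment over all kept probes and calls at an adjusted p under 0.05. The spread is that between separate mice, and the number of arrays limits the precision. The brightest tested probe stood for its gene. Symbols were updated through a gene table of GRCm38.p6 (8037 probes renamed, 9504 unmatched); Hsd17b13 and Ces1d had no probe under a current name. Promoter windows came from RefSeq for 8 of the genes, and Cidea is not shown. The genes, the lists, the rule for named genes and the choice of 5 arrays were made with earlier results of these data known. By that rule the 9 genes were named whatever their values, with those called in each list and otherwise up to 4 with the smallest p, and the 5 nearest profiles. Other marker lists (macrophage, stellate, endothelial, cholangiocyte and skeletal muscle) had 0 genes called in limma. Figures were drawn with matplotlib 3.10.9.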

Additional observations from a re-analysis of the deposited data

How the results depend on the processing

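The count of genes called lower, 1 as reported, was 0 with all 6 arrays, with no background correction, under median scaling, with no filter, with array weights and with the authors' value table. It was 2 with an offset of 50, under cyclic loess (Cidec and G0s2 in each) and with a trended, robust variance (Cidec and Mgll). Of all tested probes 0.753% were called at an offset of 50, 0.579% under cyclic loess, 0.85% with the trended variance, 0.0279% under median scaling and 0.00221% with no filter, against 0.342% as reported. Leaving out 1 mouse gave 0 to 3, the 3 being without knockout replicate 2, where 16.7% of all probes were called and the lone knockout array is assumed to vary like wild type, and the 0 without wild-type replicate 2 or 3 or knockout replicate 1. Without wild-type replicate 1 the 1 gene called was G0s2. With a filter on 2 arrays, added after seeing the data, leaving out a wild-type mouse gave 0 to 2. The count called higher was 0 in every setting run. Pnpla2 turned to a log2 change of 0.37 with all 6 arrays, with and without the replicate block, and to 0.053 without wild-type replicate 2 under either filter, where leaving out 1 mouse ranged from -0.21 to 0.053, and to 0.054 with the exchanged block. Median scaling moved the median of all tested probes to -0.42, and -0.85 for Pnpla2 is to be read against that. The labels give both genotypes replicate numbers. Deviations of same-numbered arrays from their group means correlated at -0.13 and -0.13 for replicates 1 and 2 in 5 arrays, and at -0.05, -0.05 and 0.04 in 6 arrays. With 2 knockout arrays the knockout deviations mirror each other, so the 5-array values are not separate readings. The numbers of wild-type replicates 2 and 3 also differ between the deposited tables, so these values cannot settle whether arrays were paired. The replicate block gave 2 genes called in 5 arrays, Cidec (adjusted p = 0.00134) and G0s2 (0.0101), and 0 in 6 arrays. In the 5-array block wild-type replicate 3 has no knockout partner. The change there rests on replicates 1 and 2, with few arrays left to measure the spread. With wild-type replicates 2 and 3 exchanged, as in the authors' value table, the 5-array block gave 2. The arrays of knockout replicates 1 and 3, with lower mean signals and fewer detected probes, limit what can be read of probes near background. Slides and scan dates were not given, so no batch was tested.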

Other observations

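On the array of knockout replicate 3, Cideb and Pnpla2 were detected (deposited signals 103 and 109.5) and the other 4 tested genes were not. Quantile normalization of all 6 arrays gave Pnpla2 there a log2 signal of 10.42, above the 8.88 to 9.41 of wild type. It gave the Lipe probe ILMN_2552000, with a signal of 89.1 and a detection p of 0.0684, a value of 6.71, against at most 4.29 in wild type.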
